A study of Mus musculus with 12 samples.

Results

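The 10 sinusoidal endothelial genes described here, Stab2, Lyve1, Clec4g, Oit3, Gpr182, Kdr, Flt4, Tek, Pecam1 and Cdh5, were chosen by name from the 16971 genes of a table of RNA-seq values, and all 10 were found in it. Their levels were followed in GFP(+) cells sorted from mouse livers after bile duct ligation (BDL), a surgical block of bile flow that leads to cholestatic injury and fibrosis. The adult C57BL/6 mice carried Prom1CreERT2-nLacZ/+ and Rosa26Lsl-GFP/+, so that tamoxifen switched on a lasting GFP label in cells in which the Prom1 gene was active, and in whatever those cells gave rise to. All mice received tamoxifen 7 days before surgery, and the groups were Sham day 0, BDL day 3 and BDL day 14, with 3, 3 and 4 libraries in the group means. The sham group is called day 0 below. The sort took live cells of the nonparenchymal fraction by GFP alone, with a gate set on wild-type livers, and used no endothelial marker.

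The liver sinusoid is lined by an endothelium that is unlike that of other vessels. It is perforated by fenestrae, lacks a basement membrane, and clears waste molecules from portal blood through scavenger receptors and lectins. It also depends on the VEGF and angiopoietin systems, in which ligands from neighbouring cells act on receptor tyrosine kinases of the endothelial surface. In chronic injury sinusoidal endothelium is known to lose fenestrae and to take on features of ordinary capillaries.

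The regulatory sequence next to the start site is shown for the 3 members whose RefSeq and GENCODE starts lie within 3 bases of each other, to place a pair of receptor kinases beside a lectin with the same dip at BDL day 3. RefSeq windows of assembly GRCm38.p6 matched 5 of the 10 members. Each sequence below is the 250 bases before the annotated start, 5′ to 3′ on the strand of the gene. Capitals mark motif letters on either strand, and no matches overlap. The ETS family, central to endothelial identity, was searched as CAGGAA and, in a separate search, as CCGGAA. For the GATA family the letters searched were AGATAA. Forkhead factors were searched as GTAAACA, and the general SP family as GGGCGG.
Kdr: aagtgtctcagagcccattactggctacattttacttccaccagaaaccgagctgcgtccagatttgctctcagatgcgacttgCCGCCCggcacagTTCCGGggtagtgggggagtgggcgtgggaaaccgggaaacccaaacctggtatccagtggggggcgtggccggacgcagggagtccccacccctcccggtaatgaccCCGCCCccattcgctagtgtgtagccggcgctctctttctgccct
Tek: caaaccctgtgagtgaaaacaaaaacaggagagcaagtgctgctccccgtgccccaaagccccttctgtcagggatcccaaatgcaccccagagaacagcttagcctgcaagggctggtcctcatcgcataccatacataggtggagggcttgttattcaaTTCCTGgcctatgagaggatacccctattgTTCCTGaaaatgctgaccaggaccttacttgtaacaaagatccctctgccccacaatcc
Clec4g: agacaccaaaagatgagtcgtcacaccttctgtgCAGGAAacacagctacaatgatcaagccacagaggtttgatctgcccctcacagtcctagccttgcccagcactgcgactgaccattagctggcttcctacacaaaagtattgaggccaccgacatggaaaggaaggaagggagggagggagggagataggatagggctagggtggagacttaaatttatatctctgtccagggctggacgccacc
The Kdr stretch lies at chr5:75978456-75978705 on the minus strand, Tek at chr4:94739039-94739288 on the plus strand and Clec4g at chr8:3720652-3720901 on the minus strand. Over the whole windows, which run 50 bases past the start, CAGGAA was found in Tek, Clec4g and Stab2, and CCGGAA in Kdr. Of all 32851 windows of that length, 30.6% held the former and 14.9% the latter. Among the 5 members, AGATAA stood only in the window of Tek, 36 bases after its start, against 11.2% of all windows. GTAAACA was in none of the 5, against 3.65% of all. GGGCGG was in the windows of Kdr and Flt4, against 35.7% of all. The Stab2 and Flt4 windows lie partly or wholly inside the longer gene models of GENCODE and are not printed. These matches describe letters and say nothing about binding.

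In mm10, with GENCODE M21 gene bounds, the members lie as follows. The receptors and lectins are Stab2 at chromosome 10, 86841198 to 87008025 (minus strand), Lyve1 at chromosome 7, 110850607 to 110863239 (minus strand), Clec4g at chromosome 8, 3707064 to 3720651 (minus strand), Oit3 at chromosome 10, 59422958 to 59441778 (minus strand) and Gpr182 at chromosome 10, 127747276 to 127751732 (minus strand). The kinases are Kdr at chromosome 5, 75932827 to 75978458 (minus strand), Flt4 at chromosome 11, 49609263 to 49652739 (plus strand) and Tek at chromosome 4, 94739289 to 94874976 (plus strand). The junction proteins are Pecam1 at chromosome 11, 106654217 to 106750628 (minus strand) and Cdh5 at chromosome 8, 104101625 to 104144511 (plus strand).

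The values are normalized counts, that is, gene counts scaled by the authors with the upper quartile method, given as 1 mean per group. No value of a named library was used, so no p-value could be computed from the data, and depth per library is unknown. A gene was counted as lower or higher when its group means differed by more than 1.5-fold, the fold threshold of the study. The table also lists for each gene the geometric mean over all 10 libraries and the value of its highest library, without saying which library that was. From the group means and the geometric mean, the SD between libraries of 1 group was estimated on the log2 scale, pooled over the 3 groups and taking log values as normal. The same numbers set hard limits on how low or high any single library of a group can have been.

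The endocytic receptors and lectins come first. Stab2, encoding stabilin-2, a scavenger receptor for hyaluronan, had group means of 178 normalized counts in the day 0 libraries, 93.7 on BDL day 3 and 113 on BDL day 14, and its highest library held 291. The day 3 mean was 1.90-fold below day 0, a log2 ratio of -0.93 beside an estimated SD of 0.89. Single libraries can have ranged from 20.6 to 291 in the sham group, from 14.4 to 211 on BDL day 3 and from 16.6 to 291 on BDL day 14, so the 3 groups may overlap widely. Between BDL day 3 and BDL day 14 the mean of Stab2 differed least among the members, with a log2 ratio of 0.27.

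Lyve1 encodes a hyaluronan receptor shared by sinusoidal and lymphatic endothelium. Its means were 40.7, 18.1 and 58.7 normalized counts in the same order of groups, and its highest library held 100. On the log2 scale BDL day 3 stood at -1.17 from day 0 and BDL day 14 at 0.53, each below the estimated SD of 1.27. The highest library lay at day 0 or at BDL day 14. Had it been at day 0, it would have held 81.9% of that group's sum, and without it the log2 ratio of BDL day 3 to day 0 would turn to 0.71. The lower level of Lyve1 at BDL day 3 therefore can rest on 1 library.

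Clec4g, encoding LSECtin, a C-type lectin of the sinusoidal surface, had means of 241 normalized counts in the sham group, 69.5 on BDL day 3 and 365 on BDL day 14. The BDL day 3 mean was 3.47-fold below day 0 and the BDL day 14 mean 5.25-fold above BDL day 3. Its highest library, at 703, can only have been a BDL day 14 library, and the other 3 libraries of that group then averaged 252. Clec4g was the 1 member more than 1.5-fold above day 0 at BDL day 14, at 1.51-fold. Without that library the ratio of BDL day 14 to day 0 was 0.07 on the log2 scale.

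Oit3, encoding a zona pellucida domain protein that is abundant in liver endothelium, had means of 109, 18.2 and 77.5 normalized counts. Its mean was 5.99-fold below day 0 at BDL day 3, a log2 ratio of -2.58 beside an estimated SD of 1.07. If its highest library lay at day 0, that ratio without it was -1.58, under 2 estimated SDs, though that SD still includes the omitted library. If it lay at BDL day 14, the log2 ratio of BDL day 14 to day 0 went from -0.49 to -1.83. A BDL day 3 library cannot have exceeded 42.0, while a day 0 library can have been anywhere from 8.0 to 218. Gpr182, encoding an atypical chemokine receptor of sinusoidal and lymphatic endothelium, showed the largest distance of the members between day 0 and BDL day 3. Its means were 131, 11.4 and 73.8 normalized counts, so BDL day 3 was 11.5-fold below day 0. The log2 ratio of -3.52 was 3.45 times the estimated SD. Its highest library, at 213, can only have been at day 0, and without it the log2 ratio was still -2.98. No BDL day 3 library of Gpr182 can have held more than 27.4, and no day 0 library less than 10.1.

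Among the receptor tyrosine kinases, Kdr encodes VEGF receptor 2, the main signalling receptor for VEGF-A on endothelium, Flt4 encodes VEGF receptor 3, the receptor for VEGF-C and VEGF-D, and Tek encodes Tie2, the receptor for the angiopoietins. Kdr had means of 101 normalized counts in the sham group, 22.5 on BDL day 3 and 133 on BDL day 14. Flt4 had 61.0, 10.7 and 66.4, and Tek 40.9, 7.79 and 53.6. At BDL day 3 the means of Kdr, Flt4 and Tek were 4.49-fold, 5.70-fold and 5.25-fold below day 0, and at BDL day 14 they were 5.91-fold, 6.21-fold and 6.88-fold above BDL day 3. Against day 0, the BDL day 14 log2 ratios were 0.40 for Kdr, 0.12 for Flt4 and 0.39 for Tek, all smaller than the estimated SDs of 1.07, 1.39 and 1.03. The ratio of Kdr to Tek, as normalized counts, was 2.47, 2.89 and 2.48 over the 3 groups, and that of Kdr to Flt4 was 1.66, 2.10 and 2.00. The highest library of each of these genes was at day 0 or at BDL day 14. If it was at day 0, the log2 ratios of BDL day 3 to day 0 shrink to -0.95 for Kdr, -0.97 for Flt4 and -1.42 for Tek. Those of BDL day 14 to day 0 then grow to 1.61, 1.66 and 1.36. These exceed the SDs above, but the SDs still include the omitted library and the spread without it is unknown.

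Pecam1 and Cdh5 encode adhesion proteins of endothelial junctions, CD31 and VE-cadherin. Pecam1, which leukocytes and platelets also carry, had means of 114 normalized counts in the sham group, 58.6 on BDL day 3 and 112 on BDL day 14, and the smallest estimated SD of the members, 0.64. Its BDL day 3 mean was 1.95-fold below day 0 and its BDL day 14 mean differed from day 0 by -0.03 on the log2 scale. The order of the groups was different for Cdh5. Its means were 207, 299 and 81.5 normalized counts, highest at BDL day 3 and lowest at BDL day 14. BDL day 3 was 1.44-fold above day 0, short of the threshold, a log2 ratio of 0.53 and 0.61 times the estimated SD. BDL day 14 was 3.67-fold below BDL day 3, a log2 ratio of -1.88 and 2.14 times the estimated SD. No BDL day 3 library of Cdh5 can have been below 132, while at BDL day 14 the possible values ran from 10.3 to 211. Which cells of the sort held the Cdh5 RNA was not tested. Cdh5 took 16.9% of the summed normalized counts of the 10 members in the sham group, 49.1% on BDL day 3 and 7.18% on BDL day 14. Those sums were 1224, 609 and 1135 normalized counts, and without Cdh5 they were 1017, 310.5 and 1053. The ratio of Cdh5 to Pecam1 went from 1.82 to 5.10 and then to 0.73, and that of Cdh5 to Tek from 5.06 to 38.4 and then to 1.52.

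**Figure D1:**
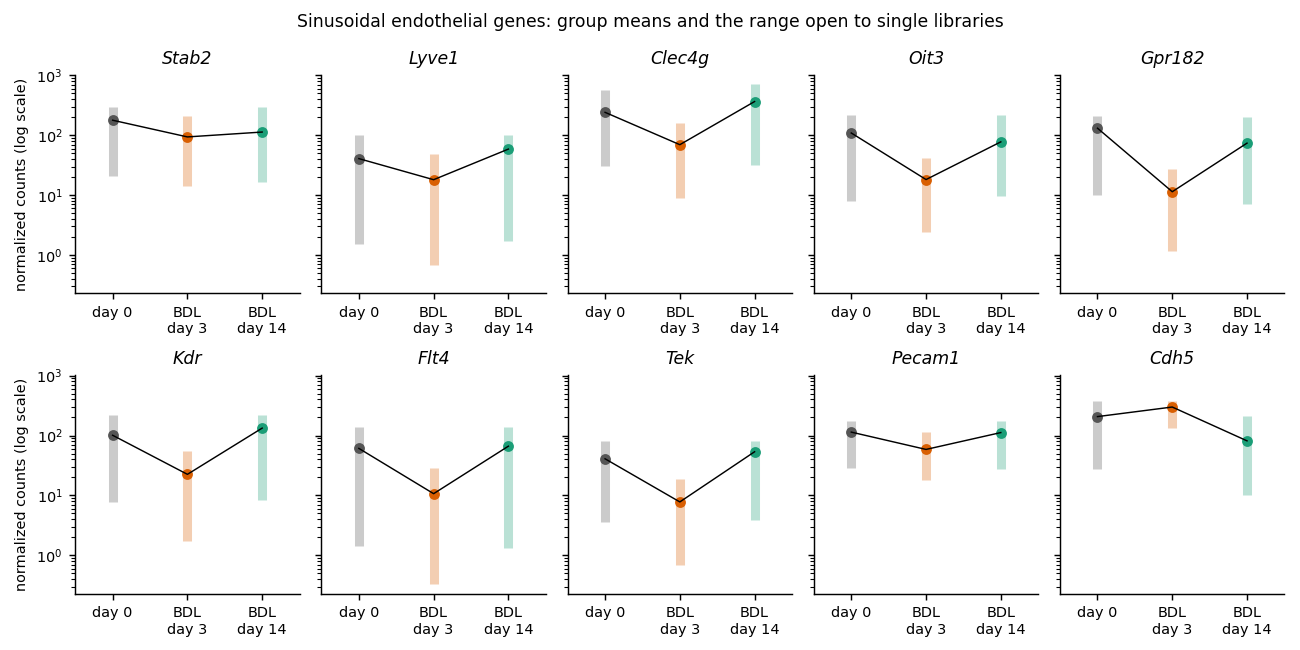
Group means of the 10 members (points joined by lines) for the 3 groups, in normalized counts on a log axis. Shaded bars are not error bars but the whole range that a single library of the group can have held. Of the 10 means, 9 are lowest at BDL day 3, and that of Cdh5 is highest there.

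Read per kilobase of annotated exon, which lets levels be set between genes, Clec4g led at day 0 with 97.9 normalized counts per kilobase, ahead of Cdh5 at 49.3 and Oit3 at 39.1. Gpr182 followed at 33.1, Stab2 at 20.3 and Pecam1 at 18.3. The lowest levels were those of Lyve1, Kdr, Tek and Flt4, at 13.9, 11.2, 8.68 and 7.41. No gap between neighbours in this order exceeded both genes' estimated SDs, and the widest was that of Clec4g over Cdh5, 0.99 on the log2 scale. At BDL day 3 Cdh5 led with 71.1 per kilobase, ahead of Clec4g at 28.2 and Stab2 at 10.7, gaps of 1.33 and 1.40 on the log2 scale that exceeded both SDs, and Gpr182 was at 2.88. At BDL day 14 Clec4g led again with 148, ahead of Oit3 at 27.8 by a gap of 2.42 on the log2 scale. Lyve1 followed at 20.1 and Cdh5 at 19.4, with gaps to their neighbours below the SDs. These SDs describe each gene alone, and how far genes varied together across libraries is unknown. They serve as a scale and do not measure the error of a gap, so which ranks differ was not tested.

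Counted together, 9 of the 10 members were lower at BDL day 3 than at day 0 by more than 1.5-fold, where 29.2% of the 12889 genes kept for analysis were, and none was higher, where 19.2% were. The kept genes are those whose normalized counts sum to at least 10 over the libraries. Many of them are scarce, and of the 7291 genes with a mean of at least 10, which includes all members, 15.0% were lower and 22.9% higher. The members' median log2 ratio was -1.98, against -0.02 over all kept genes, and the 10 ratios ran from -3.52 to 0.53. Kdr, Oit3, Gpr182 and Tek were lower by more than 2 estimated SDs as well, as were 10.9% of the genes kept. Without each member's highest library, where that can lie at day 0, 6 members were lower and Lyve1 and Cdh5 higher, with Stab2 at -0.37 and Pecam1 at -0.53. The members' median log2 ratio was then -0.96. Under quantile normalization of the group means, the same 9 members were lower, while the shares of all kept genes changed to 21.0% lower and 26.7% higher.

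Between BDL day 3 and BDL day 14, 8 of the 10 members were higher at the later time, beside 21.2% of all kept genes. Cdh5 was lower, as 19.7% of all genes were. Among genes with a mean of at least 10, the shares were 14.1% higher and 17.4% lower. Stab2 differed by less than 1.5-fold. The median log2 ratio was 2.24, against a median of -0.00 over all genes. Kdr, Clec4g, Gpr182 and Tek were higher by more than 2 estimated SDs too, as were 7.6% of all genes. These comparisons share the BDL day 3 libraries, so a low mean there enters both. If the highest library of a member lay at BDL day 14, the log2 ratio without it was 0.75 for Oit3 and -0.80 for Stab2. With each member's highest library left out where it can lie there, the members' median was 1.59. The full dip, lower at BDL day 3 than at both other times, was shown by 8 members and by 13.4% of all genes.

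Against day 0, BDL day 14 gave a mixed picture. Stab2, Gpr182 and Cdh5 were lower, by 1.58-fold, 1.78-fold and 2.54-fold in that order, where 28.7% of all genes were lower. Clec4g was higher, where 21.2% of all genes were. Of the genes with a mean of at least 10, 17.3% were lower and 23.4% higher. The other 6 members were within 1.5-fold of day 0, and the median log2 ratio was 0.05, against -0.04 over all genes. This comparison shares the day 0 libraries with that of BDL day 3. Without each member's highest library, where that can lie at day 0, 0 members were lower and 5 higher, and where it can lie at BDL day 14, 4 were lower and 0 higher. Of the differences with all libraries only that of Cdh5 exceeded its estimated SD, at 1.54 times. The ratio of Clec4g to Stab2, as normalized counts, was 1.35 in the sham group, 0.74 on BDL day 3 and 3.23 on BDL day 14.

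**Figure D2:**
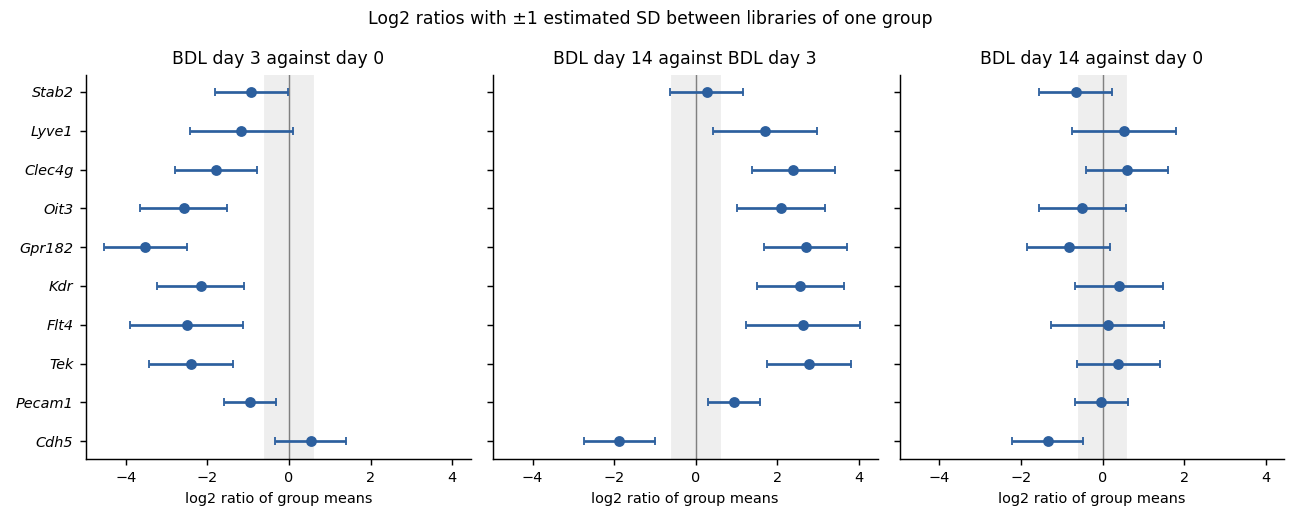
Log2 ratio of group means for each member in the 3 comparisons, with bars of 1 estimated SD between libraries of a group on each side and grey bands for differences within 1.5-fold. At BDL day 3 the 10 ratios to day 0 run from -3.52 to 0.53, and at BDL day 14 they run from -1.34 to 0.60.

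In none of the 3 comparisons did the numbers force the libraries of both groups apart for any member. These limits often miss groups that are truly apart when the spread is as wide as the members', so this does not show that the groups overlapped. Separation was forced for 7.11% of all genes between BDL day 3 and day 0, for 7.34% between BDL day 14 and day 0, and for 4.15% between BDL day 14 and BDL day 3. The members varied widely among libraries of a group. Their estimated SDs ran from 0.64 for Pecam1 to 1.39 for Flt4, with a median of 1.02. The 4403 genes with a mean between 20 and 300 normalized counts, the range of the members, had a median of 0.40 with quartiles of 0.30 and 0.52. Only 12.2% of those genes were at or above Pecam1, and 2.16% were at or above the members' median. The highest single library held 81.9% of its group's sum for Lyve1 and 77.0% for Flt4, if it was at day 0.

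**Figure D3:**
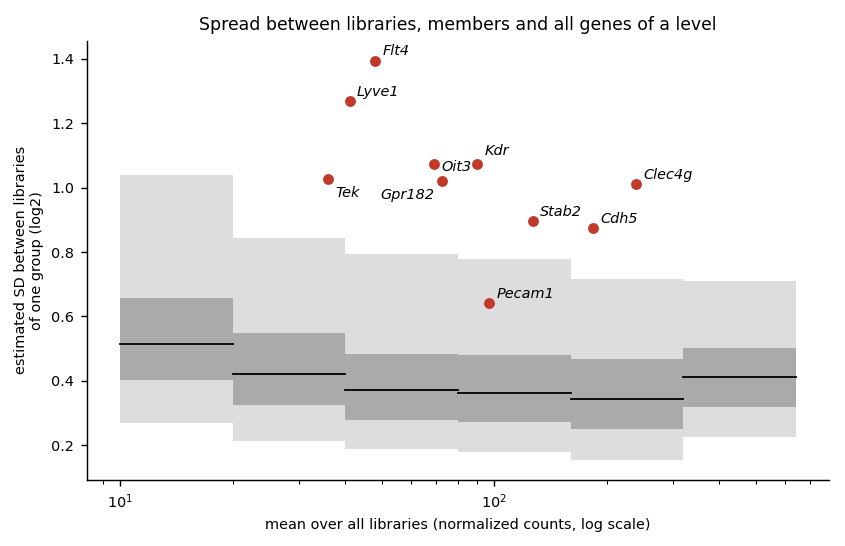
Estimated SD between libraries of a group (log2) against the mean over all libraries (normalized counts, log axis). Red points are the members, black lines the median of all genes in each range of means, dark grey the middle 50% of those genes and light grey the middle 90%. All members but Pecam1 lie above the light grey band.

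The study's imaging of adult livers placed GFP in cells of the bile ducts, and it read the sorted cells as the lineage of Prom1-expressing cells. If a sort holds several cell types, fewer cells of a type and less RNA per cell cannot be told apart. For this reason further endothelial genes and markers of the other cells the sort could hold are set beside the members. Of 18 further genes of sinusoidal endothelium, 14 were lower at BDL day 3 than at day 0 and 1 was higher, with a median log2 ratio of -1.74, and 14 showed the full dip. Fcgr2b, an Fc receptor that clears immune complexes, went from 185 to 57.0 and then to 603 normalized counts. The 4 without a dip, named here after their values were seen, were Stab1 (176, 131 and 420), Mrc1 (385, 390 and 306), Tfec (78.6, 62.1 and 35.7) and Clec1b (224, 440 and 112). Over all 18 genes the median log2 ratio of BDL day 14 to day 0 was 0.01.

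Of 23 pan-endothelial genes, 22 were lower at BDL day 3 and 21 showed the dip, with median log2 ratios to day 0 of -2.28 and, on BDL day 14, 0.17. Eng, a co-receptor for BMP9, had means of 179, 30.1 and 150 normalized counts. Ptprb, the phosphatase that restrains Tie2, had 125, 21.6 and 187. Cd93 differed from these with 30.7, 19.8 and 266. The 2 genes without the dip, named after their values were seen, were Fli1 and Icam2, and their estimated SDs were 0.41 and 0.45 where the list's median was 0.95.

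The list of the VEGF and angiopoietin system shares Flt1, Nrp1, Tie1 and Ptprb with the lists above. All 10 of its genes kept for analysis were lower at BDL day 3 than at day 0, with a median log2 ratio of -2.56, and 9 were higher at BDL day 14 than at BDL day 3. The co-receptor gene Nrp1 had means of 68.5, 31.9 and 90.3 normalized counts, and Tie1, the partner receptor of Tie2, 49.4, 9.36 and 67.9. The ligand gene Vegfa had 9.32, 1.55 and 3.99, and Angpt2 7.99, 0.91 and 5.78, both named after their values were seen. Angpt1, Pgf and Vegfd were listed at the lowest value of the BDL day 3 column, so no fold is given. Of these, Angpt1 is among the 10 kept genes, so the counts and the median above include a gene at that lowest value.

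Genes of larger vessels and of capillarised endothelium were also low at BDL day 3, 10 of the 11 kept, with a median log2 ratio of -2.90. Vwf, the clotting factor carrier of large-vessel endothelium, stayed low, with 68.2, 8.31 and 14.4 normalized counts. Plvap, a component of fenestral diaphragms, had 55.4, 9.14 and 48.5. The exception was Vcam1, a leukocyte adhesion molecule, at 287, 784 and 209. Of 6 lymphatic genes 5 were lower at BDL day 3, among them Pdpn with 8.20, 0.92 and 5.72. Against day 0, 4 of the 6 were lower and 0 higher on BDL day 14, and 3 showed the full dip. Reln, named for this overlap, is also among the hepatic stellate cell genes below. Ccl21a, a chemokine of lymphatic vessels, was at 11.8 in the sham group, at the lowest value of its column on BDL day 3 and at 1.55 on BDL day 14. Mmrn1 of this list was also at that lowest value on BDL day 3, with 2.51 in the sham group and 1.44 on BDL day 14. The lymphatic counts of lower genes and of dips include both. Itga9, an integrin, was the exception, with a log2 ratio of 1.11.

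The markers of other cell types did not share 1 course. The 6 Kupffer cell genes, of the resident macrophages of the sinusoid, summed to 9814 normalized counts in the sham group, 21889 on BDL day 3 and 1341 on BDL day 14. Of these, 5 were higher at BDL day 3 and all 6 lower at BDL day 14 than at day 0. Clec4f had 4610, 6890 and 185, Cd5l 2620, 7440 and 691, and Marco 694, 3920 and 183. Cdh5 had this order of group means, highest on BDL day 3 and lowest on BDL day 14. Picked out after their values were seen, 4 genes of the other endothelial lists also had it, Mrc1, Clec1b, Vcam1 and Itga9. So did Csf1r of the general macrophage genes. The share of all kept genes with this order was not counted, and the means of Mrc1 lay within 1.5-fold of each other. The other 9 members had the opposite direction between day 0 and BDL day 3. The part of Kupffer cells in these levels was not tested. The 6 general macrophage genes summed to 4647, 8633 and 13888, with 5 of 6 higher at BDL day 3. Lyz2 had 2280, 4560 and 11200, Csf1r 1360, 2140 and 1230, and Cd68 508, 1050 and 646. Their median estimated SD was 0.48, and that of the Kupffer cell genes 0.59, against 0.97 for the further sinusoidal genes.

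Hepatocyte genes were lower at both times, 6 of 8 at BDL day 3 and 8 of 8 at BDL day 14, Alb with 2440, 642 and 271 normalized counts, Serpina1a with 353, 102 and 28.9 and Apoa1 with 152, 109 and 45.7. Of the 8 hepatic stellate cell genes 7 were lower at each time, Dcn with 177, 6.35 and 21.6 and Rgs5 with 104, 4.96 and 35.0. Between BDL day 3 and BDL day 14, 3 of the 8 were higher at the later time and 3 lower, and 3 showed the full dip. Ecm1, at 108, 155 and 154, was within 1.5-fold of day 0 at both times. Of the 6 cholangiocyte genes kept, 5 were lower at BDL day 3. Against day 0, 3 of the 6 were lower and 2 higher on BDL day 14, 4 were higher than on BDL day 3, and 3 showed the full dip, so part of this list had the course of the members. Spp1, osteopontin, was at 459, 175 and 792 normalized counts, and it made up most of the list's sum of 513, 204 and 833. Krt19 and Krt7, keratins of bile duct cells, were at 21.5, 12.7 and 14.3 and at 10.9, 5.61 and 10.7, and Prom1, the gene that drove the label, at 6.66, 0.96 and 1.76. No kept biliary marker was at the lowest value of its column.

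**Figure D4:**
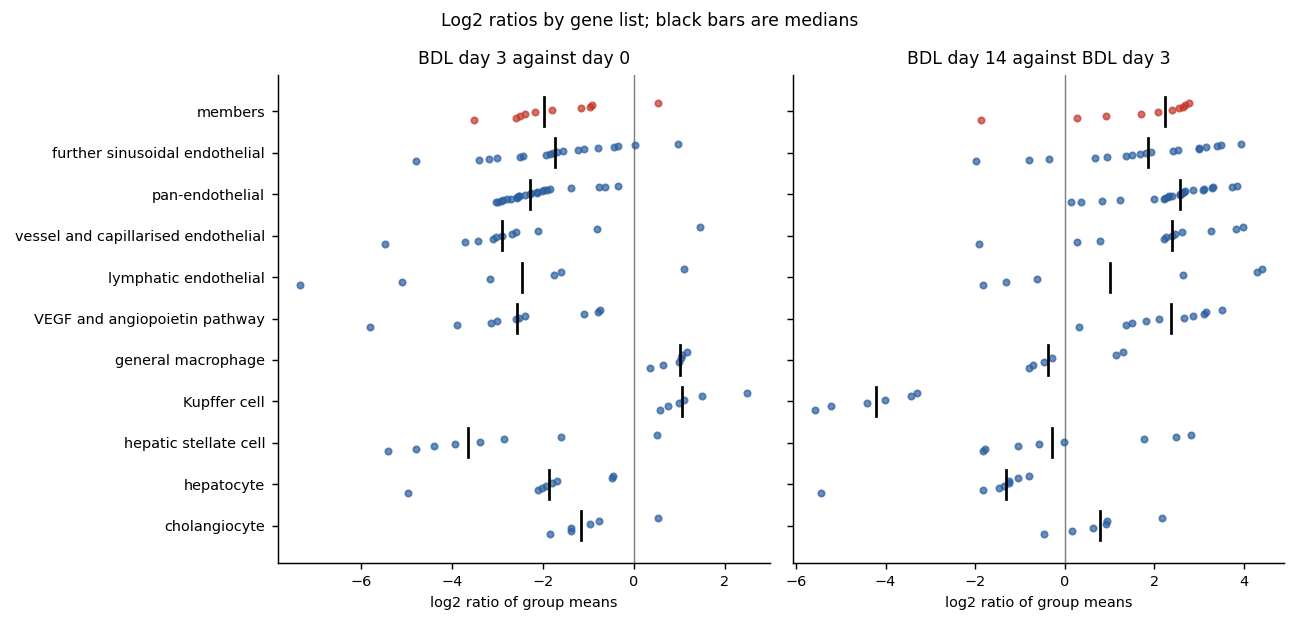
Log2 ratios of group means for every kept gene of the members (red) and of the 10 other lists (blue), BDL day 3 against day 0 on the left and BDL day 14 against BDL day 3 on the right, with black bars for medians. The members' medians are -1.98 and 2.24, and those of the Kupffer cell genes 1.06 and -4.22.

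Among the 7281 other genes with a mean of at least 10 normalized counts, the 5 whose pair of log2 ratios to day 0 lay nearest to the members' medians were Mfge8, Gng11, Cd24a, Akap2 and Car8, at distances from 0.03 to 0.11. Mfge8 had means of 56.0, 14.3 and 56.8 normalized counts, and Gng11 31.0, 7.58 and 31.6. Cd24a, a surface protein of biliary and immune cells, had 84.6, 22.4 and 88.4. In all, 12 genes lay within a distance of 0.25, and each distance rests on 3 group means. The point is a pair of medians, around which the members themselves spread widely. Their log2 ratios to day 0 ran from -3.52 to 0.53 at BDL day 3 and from -1.34 to 0.60 at BDL day 14.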

How the data were processed

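RNA-seq was made from GFP(+) sorted liver cells, with Truseq mRNA libraries on a NextSeq. The authors aligned the reads to mm10 with STAR (version 2.6.1d in the submitters' processing notes), counted genes in Partek Flow and scaled the counts by the upper quartile. The deposited values are signal on that normalized count scale, with 3 significant digits: least squares means of the 3 groups, the highest library of each gene, and means over all libraries. The labels describe 12 libraries, 6 of them at BDL day 14, but the means fit 3, 3 and 4 libraries: weighted so, they gave back the arithmetic mean within 0.469% for 99% of genes. The study left out BDL day 14 libraries with too few reads, and which ones is not known here. Columns of the authors' own comparisons (p-values, false discovery rates, ratios, fold changes and their limits) were not used.

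Ratios of group means were computed for 12889 genes with a summed value of at least 10. No p-value was computed, since only group values were used. The study's account of the groups counts animals by sex, so libraries are taken as separate mice. Most day 0 mice were female and most mice of both BDL groups male, so sex and ligation cannot be fully told apart. The estimated SD takes the gap between group means and the geometric mean over all libraries, and the range open to single libraries follows from the same gap with the highest library as a ceiling. Both were devised after the data were seen and run on simulated data. The estimates came out slightly low, and at a spread like that of the members many separate pairs were missed. No pair of groups said to be apart overlapped, which the limits are built to ensure, so that outcome checks only the code. The estimate assumes the same spread in each group, and so did the simulation, so unequal spreads were not tried. Exon lengths came from GENCODE M21 (the authors counted on another release) and promoters from RefSeq. Members and gene lists were chosen with earlier results of these data known. Of each list, the text names the 3 genes with the highest mean, those marked as named later, and some at the lowest value of a column or shared between lists. Python 3.11.15, numpy 2.4.6 and pandas 2.3.3 were used. How reads over overlapping genes were counted is not given in the sources used here.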

Additional observations from a re-analysis of the deposited data

How the results depend on the processing

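Of 234 recomputed values, 221 moved by less than the estimated SD or, for counts, by no more than 1.5 times, which does not mean that all kept their sign. The settings were other fold thresholds, pseudocounts, median-ratio and quantile scaling, other filters and, added after seeing the data, leaving out the highest library of each member where it can lie at day 0 or at BDL day 14. Some of the 221 could not move. The other filters kept all members, and omitting a library of a group leaves the ratio of the other groups unchanged. The share that stayed therefore overstates the stability. Among the 221 is the members' median of BDL day 3 to day 0, which went from -1.98 to -0.96 under the day 0 omission. At a 2-fold threshold 1 member instead of 4 differed between BDL day 14 and day 0, and at 4-fold 0 did. At 4-fold 5 members instead of 9 were lower at BDL day 3. Of the log2 ratios and medians, 8 recomputed values changed sign. Lyve1 was past 1.5-fold before it did, and its ratio of BDL day 3 to day 0 became 0.71 without its highest library, if that lay at day 0. Oit3 and Pecam1 at BDL day 14 against day 0 then went to 0.51 and 0.41. Under the same omission 6 members were lower and 2 higher on BDL day 3, and 0 lower and 5 higher on BDL day 14. If the highest library lay at BDL day 14 instead, Stab2 against BDL day 3 became -0.80, Flt4 against day 0 -0.55 and the members' median against day 0 -0.43. That median was -0.06 under quantile normalization, and Pecam1 was 0.01 under median-ratio scaling. Quantile normalization moved the median of all genes to 0.12 for BDL day 3 and 0.10 for BDL day 14, and 4 members were then lower and 0 higher at BDL day 14. It also lowered the log2 ratio of BDL day 3 to day 0 for Cdh5 from 0.53 to 0.08.

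No paired analysis was possible because the table holds group means and the result comes from no test. Leaving out each library in turn was not run for the same reason. Depth per library is unknown, so the error of a low mean such as that of Tek at BDL day 3 cannot be split into counting and biological parts.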
